A study of Mus musculus with 6 samples.

Results

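The 9 genes described here encode suppressive cytokines, receptor chains and tissue repair mediators of regulatory T cells (Tregs). They are Il10, the chains of its receptor Il10ra and Il10rb, the IL-35 subunit genes Ebi3 and Il12a, and the mediator genes Fgl2, Areg, Penk and Jag1. They were chosen by name, and each was found through its Ensembl identifier and GENCODE M21 symbol among the 49315 genes of the count table. Tregs were sorted from skin and from skin-draining lymph nodes (SDLNs) of Foxp3-GFP reporter mice on postnatal day 9 (P9), with 3 libraries of each tissue, named by letter (skin Tregs A to C and SDLN Tregs A to C). Values of a tissue are listed below in the order of these letters, and the letters were not used to pair the tissues, since no source says whether they could. Every sample pooled cells of several mice, and both groups carried the same reporter allele, in which green fluorescent protein marks cells that express Foxp3, with no treatment named for either. The sort gate was CD45+ CD4+ Foxp3-EGFP+ live cells, after enrichment of CD45+ cells from digested tissue. The comparison of both tissues served the study's search for ligands that skin Tregs could send to other skin cells. Il10 was among the ligands that the study picked from these same libraries, so its direction here is not independent evidence.

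IL-10 is a cytokine that dampens macrophages, dendritic cells and T cells through a receptor built from a ligand-specific chain (IL-10RA) and a chain shared with related cytokines (IL-10RB), and signals through JAK1, TYK2 and STAT3. IL-35 is a dimer of the proteins encoded by Ebi3 and Il12a, and both subunits also occur in other cytokines of the IL-12 family. Fgl2 is a secreted suppressive protein that binds inhibitory Fc receptors, amphiregulin (Areg) is a ligand of the EGF receptor linked to tissue repair by Tregs, Penk encodes the precursor of the enkephalin opioid peptides, and Jag1 is a membrane ligand of Notch receptors that has been linked to the action of skin Tregs on hair follicles.

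The skin libraries were far smaller than the SDLN libraries, with 3748669 to 11741784 counts against 47243498 to 116158706, and held fewer genes at a CPM of 1 or more (CPM, counts-per-million within the library), with 2911 to 5317 against 12397 to 13002. A count of 0 allows up to 3 counts, called the floor here, which is 0.255 to 0.800 CPM in skin and 0.0258 to 0.0635 CPM in the SDLN libraries. Foxp3 itself had 0, 330 and 1 counts in skin, and 1788 to 12208 counts in the SDLN libraries, and Cd4, the other T cell gene of the gate, had 0, 1861 and 2 counts in skin and 14288 to 54756 counts in SDLN libraries. Skin Tregs A and C thus went against the sort gate in both genes, and Cd3e was at 0 in skin Tregs A as well. The rest of the 12 T cell and Treg markers were over 3 counts in every skin library, at 109.9 CPM or more in skin Tregs A and C. Log2 fold changes with skin Tregs B alone as the skin arm, an alternative chosen after seeing the data, are given where they matter. With 1 skin library, that fit cannot measure the spread between skin libraries. Its values are therefore given as effect sizes only, and its calls enter only the counts over all alternatives. Of these 12 markers, 1 (Ctla4) was higher in skin and 1 (Trbc2) was lower. Their summed level was 6197 to 9724 CPM in skin and 10842.5 to 11018 CPM in SDLN libraries. Of 19 macrophage and dendritic cell markers, 16 were higher in skin, 1 (Zbtb46, at 0 counts in all skin libraries) was lower, and the summed level was 35492 to 62017.5 CPM in skin against 714 to 1000 CPM in SDLN libraries. Keratinocyte markers summed to 0 in every skin library and to at most 14.3 CPM in the SDLN libraries, B cell markers to at most 2.66 CPM in skin against 57.8 to 93.5 CPM, and melanocyte markers to at most 1.33 CPM in skin against 5.42 to 10.2 CPM. Fibroblast markers reached 90.6 CPM in skin Tregs B and at most 7.56 CPM elsewhere. Mast cell and granulocyte markers reached 226 CPM in skin Tregs A, were at 0 in skin Tregs B and C and lay at 11.6 to 26.9 CPM in SDLN libraries. Endothelial markers lay at 0.511 to 25.9 CPM in skin and 139 to 173 CPM in SDLN libraries. That SDLN sum was almost all Pecam1, with Cdh5, Kdr, Tie1 and Emcn at 1.09 CPM or lower each.

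Differences between the tissues were tested with the quasi-likelihood test of edgeR on raw counts, with p-values adjusted by the Benjamini-Hochberg (BH) method over all 13572 genes tested and a threshold of 0.05. Over those genes, 1.04% were called higher in skin and 45.3% lower, and 43.3% lay at the floor in all 3 skin libraries. Among the 9 genes, 7 passed the filter on low counts, while Il12a and Areg did not. Il10 was called higher in skin, Il10ra was called lower, and 5 (Il10rb, Ebi3, Fgl2, Penk and Jag1) did not pass. Of the 7 tested, 5 were at the floor in at least 1 skin library, as 87.9% of all genes tested were, and of the full 9, Il10ra, Il12a and Areg were at it in all 3. The median log2 fold change of skin over SDLN libraries was 0.79 over the 7 tested genes and -2.21 over all genes tested. The 0.79 is the value of Ebi3, which in skin was read only in skin Tregs C, with an SE of 3.05. A gene could enter the test through its SDLN counts alone. In sorted bulk samples, fewer cells that express a gene and less of its RNA per cell cannot be told apart.

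**Figure D1:**
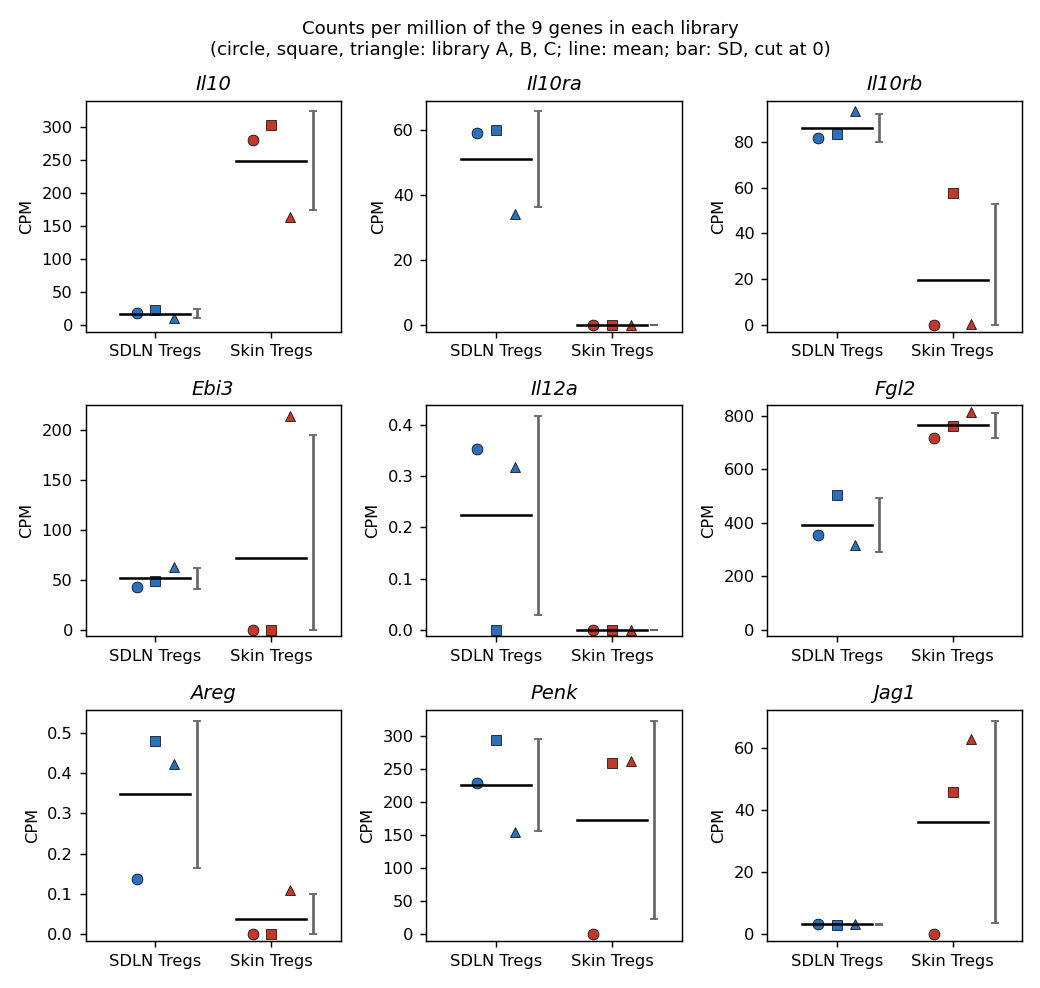
Counts-per-million, relative to each library total (vertical axes, linear, each gene on its own scale) of the 9 genes in the 3 SDLN Treg libraries (blue) and the 3 skin Treg libraries (red); circles, squares and triangles are libraries A, B and C, lines are means and bars are SD, cut at 0. Il10 and Fgl2 lay higher in every skin library than in every SDLN library, Il10ra and Il10rb lay lower, and the skin libraries split into values near 0 and high values for Il10rb, Ebi3, Penk and Jag1.

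Il10 was the only one of the 9 genes called higher in skin. Its level was 279.8, 302.8 and 162.7 CPM in skin (1049, 3555 and 1470 counts) and 18.3, 23.5 and 10.7 CPM in lymph node Tregs (2125, 1714 and 504 counts). Every skin library lay above every SDLN library, a separation found for 2.39% of all genes tested. The mean was 248 ± 75.1 CPM (SD, n = 3) in skin and 17.5 ± 6.47 CPM (SD, n = 3) in SDLN libraries, a ratio of 14.2, and the fitted log2 fold change was 3.79 (SE 0.999, BH-adjusted p = 0.0221 by edgeR). The gene, ENSMUSG00000016529, lies on the plus strand at chr1:131019845-131024974 (GRCm38).

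The Il10 difference kept its direction under all 15 alternatives and passed the threshold under 10 of them. It was 4.19 on the log2 scale with skin Tregs B alone, the skin library with Foxp3, as the skin arm. Leaving out SDLN Tregs A, B or C ended the call, with BH-adjusted p-values of 0.167, 0.104 and 0.0982 by edgeR and log2 fold changes of 3.43 to 4.02. It stayed past the threshold with any 1 skin library left out (BH-adjusted p = 0.0144 to 0.0253 by edgeR). With the column letter as a block the call ended (log2 fold change 3.81, BH-adjusted p = 0.428 by edgeR), though no source pairs the letters. The summed macrophage and dendritic cell markers, at 62017.5, 39175.6 and 35492 CPM in skin, lay above those of the SDLN libraries wherever Il10 did, and their part in the result was not tested. When all libraries were drawn down to the smallest total, Il10 kept 1049, 1124 and 613 counts in skin and 69, 100 and 37 in SDLN libraries, and the groups still did not overlap.

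Within a library, Il10 ranked 355 of 2909, 237 of 5312 and 557 of 4537 genes at 1 CPM or more in skin, by RPKM, the CPM divided by the exon length in kilobases. The rank in lymph node Tregs was 3937 of 12486, 3339 of 12984 and 5188 of 12382. Il10 thus stood nearer the top of the list in every skin library than in any SDLN library. Of the 2680 genes whose mean SDLN level lay between 10 and 30 CPM, as that of Il10 did, 40 (1.49%) were higher in every skin library than in every SDLN library.

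The profiles nearest to that of Il10, by Euclidean distance of centred log2(CPM + 1) values over the 6 libraries and 9346 genes, were those of Tnfaip3 (distance 0.794), an inhibitor of NF-kB signalling, Ifi30 (0.806), a lysosomal thiol reductase of antigen processing, and Ms4a6c (1.18), a membrane protein of the MS4A family. Tnfaip3 lay at 972, 577 and 556 CPM in skin and 71.0, 75.5 and 38.9 CPM in the SDLN libraries. Ifi30 lay at 265, 254 and 112 CPM in skin and 12.3, 16.2 and 14.1 CPM in SDLN libraries. All 3 genes were high in every skin library and low in every SDLN library, as Il10 was.

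Genes known to control Il10 transcription in T cells did not move together. Of 8 such genes (Maf, Prdm1, Irf4, Batf, Nfil3, Ahr, Bhlhe40 and Gata3), all were tested, and 0 were called in either direction by edgeR, with 0 at an unadjusted p under 0.05. Over all genes tested, 1.04% were called higher and 45.3% lower. DESeq2 called 0 of the 8 higher and 1 lower, against 404 and 6488 of all 13572 genes. Maf lay at 394, 516 and 5.31 CPM in skin and at 119 to 260 CPM in SDLN libraries, while Irf4 lay at 515, 0 and 0 CPM in skin and 52.4 to 107 CPM in SDLN libraries. Ahr was at 708, 35.8 and 0.443 CPM in skin and 20.7 to 28.2 CPM in SDLN libraries. These transcripts were thus present in 1 or 2 skin libraries at levels over those of the SDLN libraries and near 0 in the rest. Gata3, by contrast, was read in all libraries, at 852, 955 and 1180.5 CPM in skin and 652 to 1545.5 CPM in SDLN libraries. Skin Tregs C, which had 1470 counts of Il10, lay under 6 CPM for Maf, Ahr, Nfil3, Irf4, Bhlhe40 and Prdm1. Of these, Prdm1 was at 2.73 CPM or lower in every skin library and Irf4 was at 0 in skin Tregs B too. Batf lay at 92.2 CPM in skin Tregs C. Without that library edgeR called Bhlhe40 and Nfil3 higher (BH-adjusted p = 0.0322 and 0.0445). With skin Tregs B alone, the log2 fold changes of Maf, Bhlhe40, Nfil3 and Batf were 1.63, 2.21, 3.16 and 1.04. Irf4 and Prdm1 lay under all SDLN libraries in skin Tregs B.

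The ligand-specific chain of the IL-10 receptor went the opposite way to the ligand. Il10ra (ENSMUSG00000032089, chr9:45253837-45269149, minus strand) had 0, 2 and 0 counts in skin and 6835, 4355 and 1604 counts in lymph node Tregs, which is 58.8, 59.8 and 34.0 CPM. All 3 skin libraries were at the floor and all 3 SDLN libraries were far above it. Over the pooled skin libraries, 2 counts gave 0.0816 CPM (95% exact Poisson interval 0.00988 to 0.295, counting error only), against 54.2 CPM over the pooled SDLN libraries. The gene was called lower by edgeR (BH-adjusted p = 0.00799) and under 13 of the 14 alternatives that tested it. The exception was the column letter as a block (BH-adjusted p = 0.0516 by edgeR). No fitted fold is given, because it depends on the prior count.

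At the SDLN mean level, skin Tregs A, B and C would have held 191, 597 and 459.5 counts of Il10ra by read number alone. Jak1, at 752 to 1182 CPM in SDLN libraries, also had 0 counts in skin Tregs A, and whether the number of molecules behind the reads limited detection was not tested. Drawn down to the smallest total, the SDLN libraries still held 198, 219 and 113 counts and the skin libraries 0. Absence from skin libraries was common at this level, however. Of the 3649 genes at 30 to 100 CPM in SDLN libraries, 28.7% lay at the floor in all 3 skin libraries, 37.5% in 2, 25.1% in 1 and 8.63% in none.

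The shared receptor chain Il10rb (ENSMUSG00000022969, chr16:91406164-91425834, plus strand) was detected mainly in skin Tregs B. It had 0, 679 and 6 counts in skin (0, 57.8 and 0.664 CPM) and 81.5, 83.2 and 93.2 CPM in lymph node Tregs. No skin library reached the level of any SDLN library, as was the case for 53.6% of genes tested. The mean was 19.5 ± 33.2 CPM (SD, n = 3) in skin and 86.0 ± 6.31 CPM (SD, n = 3) in SDLN libraries, and the difference did not pass (log2 fold change -2.08, SE 2.45, BH-adjusted p = 0.674 by edgeR). With skin Tregs B alone in the skin arm it was -0.53, and without that library -7.65 (SE 2.02, BH-adjusted p = 0.0323 by edgeR). Of its exon bases, 14.9% are shared with the overlapping gene Gm21970, whose reads could not be told apart there if strand was not used.

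Of the other 14 genes of the IL-10 family and its signalling chain, 6 were tested, 0 were called higher and 2 lower by edgeR, beside 1.04% and 45.3% of all genes. Without SDLN Tregs A or without SDLN Tregs C, 0 were called lower. The lower genes with all libraries were Il20rb, a chain of the receptors for IL-19, IL-20 and IL-24, and Tyk2, the kinase that binds IL-10RB. Tyk2 had 0, 0 and 0.221 CPM in skin and 113, 125 and 45.3 CPM in SDLN libraries. Stat3 was over the floor in all libraries, at 347, 588 and 129 CPM in skin and 470 to 544 CPM in SDLN libraries, and these values overlapped. Socs3, a target of STAT3, was at 0, 130 and 68.1 CPM in skin and at 23.6 to 39.6 CPM in SDLN libraries. Its log2 fold change was 2.08 with skin Tregs B alone.

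The IL-35 subunit gene Ebi3 (ENSMUSG00000003206, chr17:55952640-55957022, plus strand) came from 1 skin library. Skin Tregs A and B had 0 counts and skin Tregs C had 1935 (214 CPM), while lymph node Tregs lay at 43.2, 48.3 and 63.1 CPM. Skin Tregs C thus stood above all SDLN libraries and the other 2 skin libraries below them, where the SDLN mean level would have given 193 and 605 counts. The means were 71.4 ± 124 CPM (SD, n = 3) and 51.5 ± 10.3 CPM (SD, n = 3), and the groups did not differ beyond their spread (log2 fold change 0.79, SE 3.05, BH-adjusted p = 0.936 by edgeR). The sign rested on skin Tregs C, since without it the other skin libraries hold no Ebi3 count and the gene was called lower (BH-adjusted p = 0.00442 by edgeR). A stretch of 23.4% of its exon bases is shared with Gm16712.

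The other subunit gene, Il12a (ENSMUSG00000027776, chr3:68690644-68698547, plus strand), was at 0 in skin and low in SDLN libraries. It had 0 counts in every skin library and 41, 0 and 15 counts in lymph node Tregs, which is 0.353, 0 and 0.318 CPM. Pooled, the SDLN level was 0.237 CPM (95% exact Poisson interval 0.179 to 0.308), and 0 counts over the skin libraries allow up to 0.150 CPM by the same interval. At the SDLN mean level the skin libraries would have held 0.838, 2.62 and 2.02 counts, so a level like that of SDLN Tregs was not detectable in any skin library taken by itself. Transcripts of both IL-35 subunits were therefore never over the floor in the same skin library, and were so in SDLN Tregs A and C. Il12a did not enter the test.

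Among the other 8 genes of the IL-12 family, which include the partner subunits and the receptor chains, 3 were tested and 0 were called by edgeR, with 0 at an unadjusted p under 0.05. The shares of all genes called were 1.04% higher and 45.3% lower. DESeq2 called 0 higher and 1 lower, against 404 and 6488 of all 13572 genes. Il12b, the partner of Il12a in IL-12, had no count in any library, and Il23a had none in the skin libraries. The receptor chain Il6st, through which IL-35 can signal, lay at 0, 11.2 and 23.6 CPM in skin and 249, 326 and 168 CPM in SDLN libraries. Il12rb1, a receptor chain for IL-12 and IL-23, was at 0, 0 and 158 CPM in skin and 28.5 to 63.8 CPM in SDLN libraries. It shared with Ebi3 a level in skin Tregs C above the SDLN libraries and 0 in the other 2.

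Fgl2 (ENSMUSG00000039899, chr5:21372642-21378374, plus strand) and Il10 were the only genes of the 9 over the floor in all 6 libraries. RefSeq promoters, from 250 bases before to 50 bases after the gene start on GRCm38.p6, were found for 5 of the 9 genes (Ebi3, Il12a, Fgl2, Areg and Jag1). That of Fgl2 (chr5:21372423-21372722, plus strand) is shown because the gene was read in every library, with capitals on a match to the AP-1 motif TGANTCA, which starts at base -16 from the RefSeq gene start, and on a match to the GC box GGGCGG on the other strand, which starts at base -44 from it. The RefSeq start lies downstream of the GENCODE start given above.
Fgl2 promoter: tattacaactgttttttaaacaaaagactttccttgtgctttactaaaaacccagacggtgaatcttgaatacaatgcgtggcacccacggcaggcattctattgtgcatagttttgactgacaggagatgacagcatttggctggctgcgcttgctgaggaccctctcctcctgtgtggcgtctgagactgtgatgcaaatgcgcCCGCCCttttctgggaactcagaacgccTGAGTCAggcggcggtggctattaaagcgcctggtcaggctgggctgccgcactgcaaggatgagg
Both strands were searched, and of 32851 promoters of this length 7.81% held the AP-1 motif and 35.7% the GC box. No match to the CRE motif TGACGTCA or the TATA box TATAAA was found in this window, and these matches describe letters only.

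Fgl2 lay at 719, 762 and 814 CPM in skin (2697, 8946 and 7354 counts) and at 354, 505.5 and 317 CPM in lymph node Tregs (41117, 36799 and 14999 counts). Every skin library lay above every SDLN library, and the skin values were close together. The mean was 765 ± 47.4 CPM (SD, n = 3) in skin and 392.3 ± 99.7 CPM (SD, n = 3) in SDLN libraries, a ratio of 1.95, which did not pass the threshold (log2 fold change 0.99, SE 0.433, BH-adjusted p = 0.129 by edgeR). Among the alternatives with more than 1 skin library, it passed under DESeq2 only (1.03, SE 0.368, BH-adjusted p = 0.00988). It was 1.03 with skin Tregs B alone and 0.61 without skin Tregs C (SE 0.451, BH-adjusted p = 0.350 by edgeR). The part of the macrophage and dendritic cell markers in this difference was not tested either. Of the 485 genes at 300 to 1000 CPM in SDLN libraries, 29 (5.98%) lay higher in every skin library, as Fgl2 did, and 67.2% were at the floor in no skin library.

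The profiles nearest to that of Fgl2 were those of Myo1f (distance 0.447), a myosin of leukocytes, Pnn (0.503), a protein of RNA splicing and cell contacts, and Arpc3 (0.548), a subunit of the actin-nucleating Arp2/3 complex. Myo1f lay at 326, 359 and 445 CPM in skin and 145, 198 and 172 CPM in SDLN libraries. Set against Fgl2 in the same library, Il10 gave 1.12, 1.15 and 0.578 counts per kilobase for each Fgl2 count per kilobase in skin, and 0.149, 0.135 and 0.0972 in lymph node Tregs. This ratio does not depend on the library total, and its mean was 0.951 ± 0.323 (SD, n = 3) in skin and 0.127 ± 0.0270 (SD, n = 3) in SDLN libraries, 7.48 times higher (exact two-sided permutation p = 0.10, the smallest that 3 against 3 libraries can give). The ratio was higher in every skin library than in every SDLN library.

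The Fc receptors that bind Fgl2 were read unevenly. Of these genes, Fcgr2b and Fcgr3, and Tigit, a receptor whose signalling induces Fgl2 in Tregs, 2 were tested and 0 were called by edgeR, with 1 (Fcgr3) higher at an unadjusted p under 0.05. Of all genes tested, 1.04% were called higher and 45.3% lower. DESeq2 called Fcgr3 higher, as edgeR did without skin Tregs C (BH-adjusted p = 0.00512) and with skin Tregs B alone (BH-adjusted p = 0.000172). Fcgr3, an Fc receptor of macrophages and other myeloid cells, lay at 1488, 340 and 0.111 CPM in skin and at 0.720 to 2.93 CPM in SDLN libraries. Fcgr2b, the inhibitory Fc receptor, lay at 0, 0 and 378 CPM in skin and at 1.29 CPM or lower in SDLN libraries. Each Fc receptor gene was high in skin libraries in which the other was near 0. Tigit lay at 167, 565 and 863 CPM in skin and 321 to 474 CPM in SDLN libraries, and these values overlapped.

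Areg (ENSMUSG00000029378, chr5:91139599-91148432, plus strand) was close to undetected in both tissues at P9. It had 0, 0 and 1 counts in skin and 16, 35 and 20 counts in lymph node Tregs, which is 0.138, 0.481 and 0.423 CPM. The pooled level was 0.0408 CPM in skin (95% exact Poisson interval 0.00103 to 0.227) and 0.301 CPM in SDLN libraries (0.235 to 0.379), and Areg did not enter the test. At the SDLN mean level, 1.30, 4.08 and 3.14 counts would have been read in skin, so an equal level would have given under 5 counts in each skin library. The pooled intervals did not overlap, though they leave out the spread between libraries. Drawn down to the smallest total, the SDLN libraries held 1, 2 and 1 counts and the skin libraries 0.

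Most genes around Areg were at the floor in skin as well. Of the other 12 genes of the EGF family, its receptors and its shedding machinery, 6 were tested, 0 were called higher and 4 lower by edgeR. These 4 lay at the floor in all 3 skin libraries. Over all genes tested, 43.3% lay at that floor and 45.3% were called lower. With untested genes included, 10 of the 12 lay at that floor, a count that the share of tested genes does not match. No count in any library was found for 3 of the 12, as for 24401 of all 49315 genes. At equal depth 3 genes of the list were tested and 2 called lower, and without SDLN Tregs A or without SDLN Tregs B 1 was called lower. The 4 lower genes were Hbegf, another EGF receptor ligand, Adam17, the protease that releases these ligands from the membrane, and Rhbdf1 and Rhbdf2, which carry that protease to the cell surface. Adam17 was at 0, 0 and 0.221 CPM in skin and 139, 144 and 102 CPM in SDLN libraries, while Hbegf was at 0.466 to 1.15 CPM in SDLN libraries, near the floor of 0.255 to 0.800 CPM in skin, where it was at 0.111 CPM or lower. Of the 10 other repair factors, 5 were tested, 0 were called higher and 2 (Pdgfb and Tgfb1) lower by edgeR, beside 45.3% of all genes called lower. Tgfb1 lay at 0.267, 0.596 and 1.11 CPM in skin and 4.02, 10.7 and 4.47 CPM in SDLN libraries. Igf1 lay at 7.74, 144 and 0 CPM in skin and 0.301 to 1.29 CPM in SDLN libraries, and it was not called by edgeR (BH-adjusted p = 0.162). It was called higher by DESeq2 (BH-adjusted p = 0.00332) and by edgeR without skin Tregs C (BH-adjusted p = 0.0324). With skin Tregs B alone its log2 fold change was 7.77.

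Penk (ENSMUSG00000045573, chr4:4133531-4138819, minus strand) was read in 5 of 6 libraries. Its product is cut into several enkephalins, and the repeated unit is shown because it is what makes this an opioid precursor. In the coding sequence of 804 bases, 7 in-frame copies of the codons for the shared core of the enkephalins were found, and 4 of them lie in the last 252 bases (exon 2 of 2, chr4:4133842-4134093, minus strand, GRCm38 with GENCODE M21). Capitals mark each copy together with the codon that follows it, which is ATG in 6 copies and CTG in 1 of the 7.
Penk coding bases 553 to 804: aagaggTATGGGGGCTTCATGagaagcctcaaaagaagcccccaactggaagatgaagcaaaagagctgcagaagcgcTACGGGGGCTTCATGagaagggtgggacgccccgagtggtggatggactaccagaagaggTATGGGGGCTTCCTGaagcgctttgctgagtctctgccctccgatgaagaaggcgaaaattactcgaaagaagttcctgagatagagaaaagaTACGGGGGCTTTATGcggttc

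Penk had 0, 3033 and 2360 counts in skin (0, 258 and 261 CPM) and 26553, 21439 and 7338 counts in lymph node Tregs (229, 294.5 and 155 CPM). Skin Tregs B and C lay within the range of the SDLN libraries, and skin Tregs A held none, where the SDLN mean level would have given 848 counts. The mean was 173 ± 150 CPM (SD, n = 3) in skin and 226 ± 69.6 CPM (SD, n = 3) in SDLN libraries (log2 fold change -0.16, SE 2.08, BH-adjusted p = 0.983 by edgeR). With skin Tregs B alone the fold change was 0.26, and without skin Tregs A it was 0.20 (SE 0.434, BH-adjusted p = 0.777 by edgeR). Its sign therefore turned with that library, and it passed the threshold under none of 14 alternatives. Of its exon bases, 14.3% are shared with A830012C17Rik. A gap in 1 skin library was usual at its level, since 40.0% of the genes at 100 to 300 CPM in SDLN libraries were at the floor in 1 skin library.

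Of the other 10 genes of opioid peptides, their processing enzymes and receptors, 3 were tested. All 3 were at the floor in the 3 skin libraries and were called lower by edgeR. Over all genes tested, 43.3% were at that floor and 45.3% were called lower. The untested genes of the list were at that floor too, and 4 had no count in any library. The 3 tested genes entered the test through the deeper SDLN libraries, and at equal depth 1 of the list was tested. These 3 were Pomc, the precursor of the endorphins, Cpe, a carboxypeptidase of prohormone processing, and Oprm1, the mu opioid receptor. Cpe lay at 9.78, 6.14 and 12.1 CPM in lymph node Tregs, and Oprm1 at 0.560, 0.893 and 0.444 CPM. Pcsk2, another enzyme of prohormone processing, and the delta receptor gene Oprd1 had no count in any library, and Pcsk1 lay at 0.254 to 1.51 CPM in SDLN libraries only.

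Jag1 (ENSMUSG00000027276, chr2:137081456-137116644, minus strand) was higher in 2 skin libraries and absent from the third. Its RefSeq promoter (chr2:137116471-137116770, minus strand) is shown for comparison with that of Fgl2. It held none of the 4 motifs searched and 22 CpG sites, against 12 in the Fgl2 promoter and a median of 7 over all promoters.
Jag1 promoter: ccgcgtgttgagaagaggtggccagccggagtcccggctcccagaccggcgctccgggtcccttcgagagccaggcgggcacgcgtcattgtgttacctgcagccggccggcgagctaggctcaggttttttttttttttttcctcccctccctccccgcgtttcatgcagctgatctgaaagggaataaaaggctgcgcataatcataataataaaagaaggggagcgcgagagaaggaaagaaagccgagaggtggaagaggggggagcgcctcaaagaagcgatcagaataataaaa

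Jag1 had 0, 539 and 568 counts in skin (0, 45.9 and 62.9 CPM) and 375, 211 and 155 counts in lymph node Tregs (3.23, 2.90 and 3.28 CPM). Skin Tregs B and C lay above all SDLN libraries, whose values were close together, and skin Tregs A lay below them, where the SDLN mean level would have given 11.8 counts. The mean was 36.3 ± 32.5 CPM (SD, n = 3) in skin and 3.14 ± 0.207 CPM (SD, n = 3) in SDLN libraries, a ratio of 11.6, which did not pass the threshold (log2 fold change 3.75, SE 2.15, BH-adjusted p = 0.263 by edgeR). Without skin Tregs A it did (4.13, SE 0.595, BH-adjusted p = 0.00661 by edgeR), as it did by DESeq2 (3.72, SE 1.61, BH-adjusted p = 0.0383). With skin Tregs B alone the log2 fold change was 3.92. Drawn down to the smallest total, Jag1 kept 177 and 237 counts in skin Tregs B and C and 12 to 16 counts in the SDLN libraries. Single macrophage and dendritic cell markers, named after their values were seen, split differently over the skin libraries, and Csf1r lay at 42.9, 596 and 504 CPM and Mrc1 at 1141, 269 and 300 CPM in skin (all under 5 CPM in SDLN libraries), and their part in the Jag1 values was not tested.

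Of 20 other genes of the Notch pathway, 13 were tested, 0 were called higher and 4 lower by edgeR, beside 1.04% and 45.3% of all genes, and 2 were called lower without SDLN Tregs A or without SDLN Tregs B. The 4 lower genes were Mib1, a ligase needed in cells that send Notch signals, Lfng, a glycosyltransferase that modifies Notch, and the pathway genes Dtx1 and Nrarp, of which the latter shares 79.4% of its exon bases with Gm38287. Lfng lay at 0, 0.0852 and 0.443 CPM in skin and 201, 228 and 101 CPM in SDLN libraries, and Mib1 at 0.221 CPM or lower in skin and 21.0 to 34.3 CPM in SDLN libraries. The other Jagged gene, Jag2, lay at 0 in skin and 0.381 to 1.93 CPM in SDLN libraries, so Jag1 was the only Jagged gene with counts in skin. On the receiving side, Notch1 lay at 214, 249 and 49.9 CPM in skin and 33.8 to 78.6 CPM in SDLN libraries, and Rbpj, the DNA-binding partner of Notch, at 0, 189.5 and 417 CPM in skin and 45.1 to 67.0 CPM in SDLN libraries. Rbpj, like Jag1, was at 0 in skin Tregs A and above the SDLN libraries in skin Tregs B and C, and without skin Tregs A it was called higher (log2 fold change 2.40, BH-adjusted p = 0.0287 by edgeR). With skin Tregs B alone, the log2 fold changes were 2.07 for Notch1, 1.76 for Rbpj and 3.16 for Rfng, a glycosyltransferase related to Lfng. Mib1, Lfng, Dtx1 and Nrarp lay under all SDLN libraries in skin Tregs B.

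**Figure D2:**
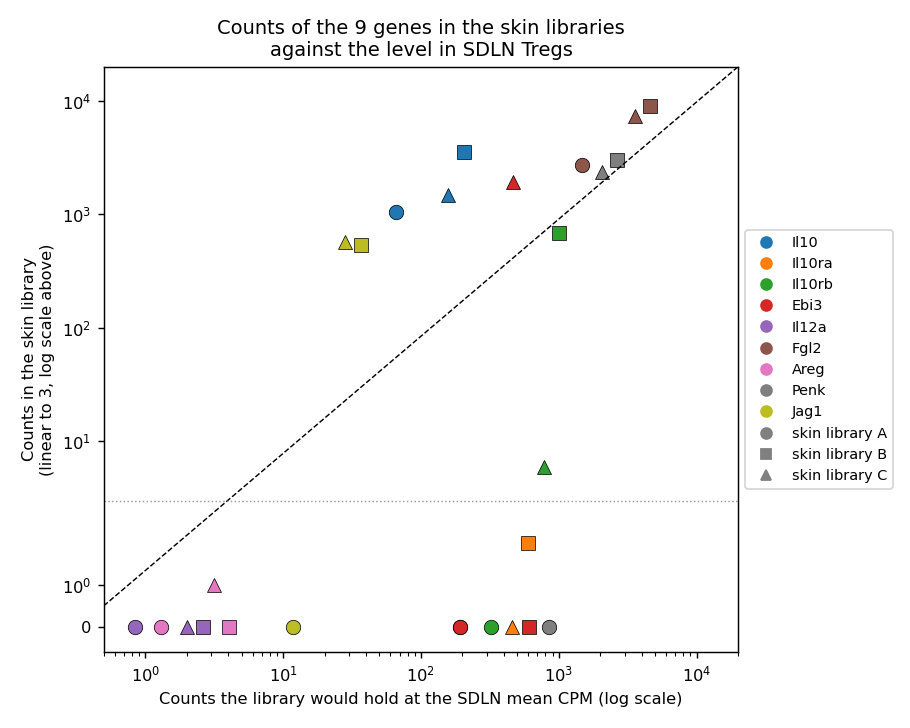
Counts of each of the 9 genes in the 3 skin libraries (vertical axis, linear to 3 and log scale above) against the counts that library would hold at the mean SDLN level (horizontal axis, log scale); the dashed line marks equal values, the dotted line the floor of 3 counts, and colours and symbols mark genes and libraries, some of which lie on top of each other. All Il10 and Fgl2 points lie above the dashed line, while Il10ra and points of Il10rb, Ebi3 and Penk lie at or near 0 where 191 to 848 counts would have been read at the SDLN level.

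Between genes, levels were compared per length of exon, in RPKM. In SDLN libraries the order was Penk (138 ± 42.6), Fgl2 (104 ± 26.3), Ebi3 (44.7 ± 8.93), Il10rb (22.6 ± 1.66), Il10ra (14.5 ± 4.19), Il10 (13.4 ± 4.94), Jag1 (0.538 ± 0.0356), Areg (0.286 ± 0.151) and Il12a (0.131 ± 0.114; all SD, n = 3). The neighbours Penk and Fgl2, Il10ra and Il10, and Areg and Il12a overlapped, and the other neighbours did not. In skin Tregs A, the level of Il10 was 214 RPKM and that of Fgl2 190 RPKM, and the other 7 genes had no count. In skin Tregs B the order of genes over the floor was Il10 (231 RPKM), Fgl2 (201), Penk (158), Il10rb (15.2) and Jag1 (7.88). In skin Tregs C it was Fgl2 (215), Ebi3 (186), Penk (160), Il10 (124), Jag1 (10.8) and Il10rb (0.174). Il10 thus stood at the top of the order in skin Tregs A and B and in the lower part of the order in SDLN Tregs, and no such order can be tested within a library.

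Over all 8 pathway lists with the 9 genes left out, 85 genes were in the table. Of these, 17 had no count in any library, as 24401 of all 49315 genes did. With untested genes included, 51 stayed at or under 3 counts throughout skin. Of the 46 tested, edgeR called 0 higher, with 1 (Fcgr3) higher at an unadjusted p under 0.05, and 15 lower, of which 13 had 3 counts or fewer in each skin library, beside 1.04% and 45.3% of all genes called higher and lower. DESeq2 called 2 higher, Fcgr3 and Igf1, and with skin Tregs B alone edgeR called 10 higher and 23 lower of 63 tested, beside 10.6% and 46.0% of all genes. The median log2 fold change of the 46 genes was -1.18, against -2.21 over all genes tested.

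**Figure D3:**
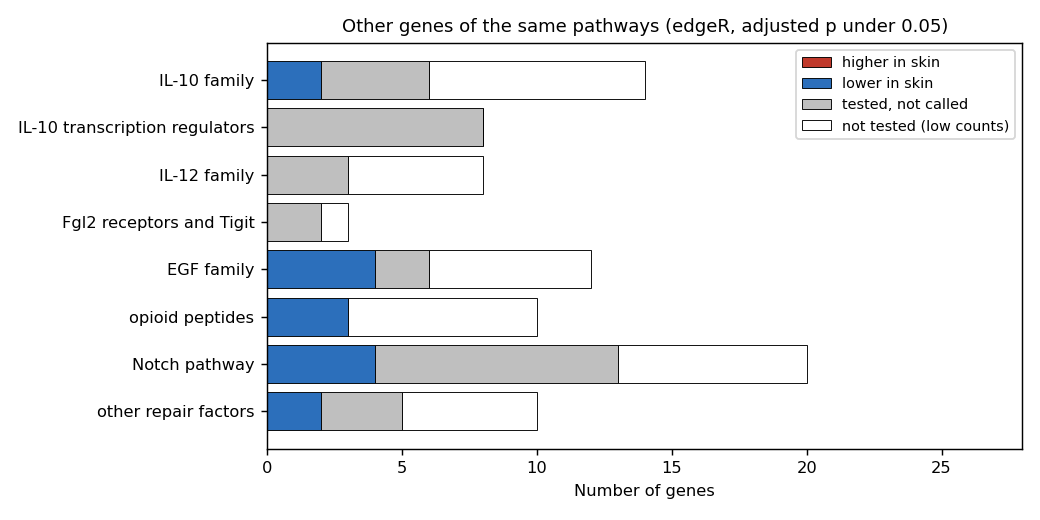
Number of genes (horizontal axis) in each of the 8 pathway lists, with the 9 described genes left out, that edgeR called lower in skin (blue), tested without a call (grey) or did not test for low counts (white). No gene was called higher with all libraries, and the 15 called lower are in 5 lists, led by the EGF family and the Notch pathway with 4 each.

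**Figure D4:**
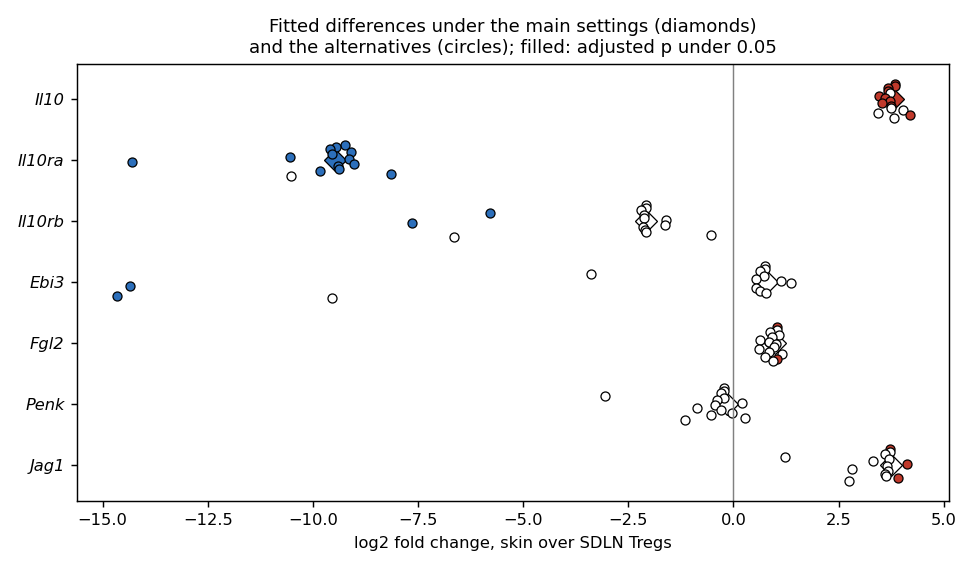
Fitted log2 fold changes of skin over SDLN libraries (horizontal axis) of the 7 tested genes with the settings of the text (diamonds) and with each alternative (circles), filled where the adjusted p was under 0.05. Il10 lies between 3.43 and 4.19 and Il10ra on the lower side throughout, where its value and the lowest values of Ebi3 depend on the prior count, while Il10rb, Ebi3, Fgl2 and Jag1 are called under some alternatives.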

How the data were processed

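The authors trimmed reads with Trimmomatic 0.36, mapped them to GRCm38 with STAR 2.5.2b and used featureCounts to count reads that mapped uniquely to exons, summed by gene (Subread 1.5.2). Their deposited table holds raw counts by Ensembl identifier. The annotation release, strand setting and handling of duplicates are not given in the sources used here, and without molecular identifiers PCR copies count as reads, so intervals and floors cover counting error only. Symbols and coordinates came from GENCODE M21, which named 49056 of 49315 genes.

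Skin and SDLN libraries (3 each, grouped by title, since the tissue label reads skin for both) were compared with edgeR 4.0.16 in R 4.3.3 (filterByExpr, TMM, robust glmQLFit, glmQLFTest, Benjamini-Hochberg). The test was run on simulated counts, where a recovery requirement was set only at a dispersion well below that of these data. That check therefore does not cover the spread seen here. The study's methods state no test for this comparison. The common dispersion was 2.04. Whether mouse pools were independent beyond the samples is not stated, so p-values measure the spread between these libraries. SE values were derived from the F statistic. CPM used library totals, and RPKM also GENCODE exon length. Columns carry letters and titles numbers, and no source pairs the libraries. Alternatives used DESeq2 1.42.0, limma 3.58.1 (voom), other scalings and filters, equal depth, left-out libraries, and the column letter as a block. The 8 pathway and 8 marker lists and the 9 genes were chosen with earlier results of these data known. Genes named are these 9, listed genes that were called or that a count needed, and the 3 nearest profiles of members over the floor in all libraries, among genes of at least 10 CPM in either tissue.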

Additional observations from a re-analysis of the deposited data

How the results depend on the processing

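Over the fold changes of the 7 tested genes and all alternatives, 81 values kept direction and side of the threshold, 7 newly passed it in the same direction, 6 lost it (5 of Il10 and 1 of Il10ra) and 6 reversed, of which 2, both of Ebi3, also passed it. The reversals of Ebi3 were -3.38 with limma voom, -14.35 without skin Tregs C, -14.66 with skin Tregs B alone and -9.54 with the letter block described below. Those of Penk were 0.20 without skin Tregs A and 0.26 with skin Tregs B alone. Among values that kept their sign, Ebi3 was 1.37 without skin Tregs B and Penk was -0.87 without skin Tregs C, neither past the threshold. The Il10 call also ended with no filter on low counts (log2 fold change 3.71, adjusted p = 0.0741 by edgeR). Over the alternatives with more than 1 skin library, the adjusted p of Il10 ranged from 3.24e-11 to 0.428. That of Il10ra ranged from 4.70e-14 to 0.0516, that of Il10rb from 0.0262 to 0.873 and that of Ebi3 from 0.00442 to 0.998. For Fgl2 the range was 0.00988 to 0.526, for Penk 0.348 to 0.9995 and for Jag1 0.00661 to 0.716.

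Of the 9 genes, 1 was called higher, against 3 with DESeq2 (Il10, Jag1 and Fgl2), 0 without a filter and 0 to 2 with 1 library left out. Of the same 9, 1 was called lower, against 2 with limma voom (Il10ra and Il10rb) and 1 to 2 with 1 library left out. With a minimum of 10 counts per library, where only Il10 and Fgl2 were tested, 0 were called lower. Of the other pathway genes, 0 were called higher, against 2 with DESeq2, 10 with skin Tregs B alone and 0 to 4 with 1 library left out, and 15 lower, against 0 with that minimum, where 7 were tested, 8 at equal depth, 23 with skin Tregs B alone and 6 to 18 with 1 library left out. Over all genes, 141 were called higher, against 404 with DESeq2, 77 without a filter, 77 with that minimum and 71 to 324 with 1 library left out. The lower calls over all genes were 6142, against 13 with that minimum and 4027 at equal depth. Causes were not tested, beyond the fewer genes tested where stated.

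The alternative with skin Tregs B alone was chosen after seeing the data, because the other skin libraries held at most 1 count of Foxp3, and it assumes that this lone library varies like the SDLN libraries. The count columns of both tissues carry the letters A to C, but no source says that a letter marks the same mice or ties it to the replicate numbers of the titles. As a check chosen after seeing the data, deviations of same-lettered libraries from their tissue means correlated at 0.0460, -0.0100 and 0.0914 for A, B and C (Pearson's r across the genes tested, which are not independent), and skin Tregs A and B correlated better with another letter. Over all pairs of letters the values lay between -0.0824 and 0.0914, with the highest for C with C. With values this low for every pair, the check cannot decide whether same-lettered libraries came from the same mice. With the letter as a replicate block, 0 of the 9 genes were called in either direction (Il10 at 3.81, adjusted p = 0.428, and Il10ra with adjusted p = 0.0516 by edgeR), and over all genes 61 were called higher and 5633 lower. The floor of the skin libraries was 0.255 to 0.800 CPM, which is close to the levels of Il12a and Areg in SDLN Tregs, so either gene at that level would have given few counts in skin.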
